A study of Mus musculus with 56 samples.

Results

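Hearts of mice fed only by day and of mice fed only by night were compared 4 h after their food had been taken away. The comparison holds 8 of the 56 heart libraries of the series, chosen by their labelled regimen and time alone. They are 4 libraries of daytime-restricted feeding (DRF) at zeitgeber time 16 (ZT16, hours after lights on), which falls 4 h into the dark phase, and 4 libraries of nighttime-restricted feeding (NRF, the reference) at ZT4, which falls 4 h into the light phase. Every animal was an adult C57BL/6J female, 9 weeks of age, with normal chow given for 7 days in the light or the dark phase alone (lights on for 12 h, off for 12 h), and no group carried a mutation or a drug. RNA was poly(A)-selected from the whole heart. Since the sources used here do not give how animals were assigned to libraries, the p-values measure the spread between libraries. The limma fits estimate that spread from all 56 libraries, not from the 8 alone. Since mice are nocturnal, the NRF animals were at rest and the DRF animals were in their usual active phase while both groups fasted, and the regimen and the light phase cannot be told apart in these 8 libraries. The DRF ZT4 and NRF ZT16 libraries, which were 4 h into feeding, the DRF ZT20 and NRF ZT8 libraries, 8 h into fasting, and the DRF ZT12 and NRF ZT0 libraries, at the end of the feeding window, are used for comparison (8 libraries each).

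Peripheral clocks run on a feedback loop of transcription. The activators BMAL1 (gene Arntl), CLOCK and NPAS2 bind E-box elements and drive the Period, Cryptochrome and REV-ERB genes, whose products repress the activators or their genes. Food taken at the usual resting time resets this loop in many organs, while light resets the central clock of the brain. The comparison asks which genes differ between hearts at opposite light phases when the hours since the last meal are equal. The heart itself turns from glucose to fatty acids between meals, with pyruvate dehydrogenase kinases and the receptors of the PPAR family among the known regulators.

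The reads recovered from the deposited values (see the processing notes for how) numbered 36.9 to 53.0 M (megareads) in the DRF ZT16 libraries and 31.1 to 38.9 M in the NRF ZT4 libraries. All values below are TPM, reads per base of exon scaled to the same total in every library, and all differences are DRF ZT16 minus NRF ZT4 on the log2(TPM + 1) scale, given with the standard error (SE), so the change of genes near 1 TPM is understated. Cardiomyocyte markers (7 of 7 listed, among them Myh6, Tnnt2 and Myl2) summed to 29832 to 31583 TPM in DRF ZT16 and 28191 to 33287 TPM in NRF ZT4. Of 17 measures of library composition, none passed an exact two-sided permutation test of 4 against 4 libraries after adjustment, and 3 reached an unadjusted p = 0.0286, the smallest that this design allows (adjusted p = 0.162). These were the summed markers of endothelial cells (419 to 474 TPM in DRF ZT16 against 536 to 758 in NRF ZT4), of smooth muscle and pericytes (555 to 606 against 713 to 1019) and of lung epithelium (0 to 5.60 against 6.38 to 17.1). A single measure at that smallest p cannot pass the adjustment over 17 measures, so the lack of a pass does not show equal composition. Fibroblast and macrophage markers overlapped between the groups, at 521 to 615 against 502 to 642 TPM and 772 to 898 against 825 to 1042 TPM. Some libraries stood apart in single markers. Atrial markers summed to 2039.6, 649.96, 653 and 2102 TPM in DRF ZT16 and to 163, 1164, 242 and 129 TPM in NRF ZT4. White adipocyte markers stood at 181 TPM in DRF ZT16 replicate 2 against 32.2 to 54.3 in the rest of its group, and at 99.1 TPM in NRF ZT4 replicate 3 against 17.8 to 28.5. Erythroid markers ranged from 1683 to 47229 TPM over the 8 libraries. In bulk tissue, fewer cells of a type and less RNA per cell cannot be told apart.

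Food-matched hearts differed in many genes. Of 13893 genes tested, 3150 (22.7%) were called at an adjusted p under 0.05 by limma, 490 higher (3.53%) and 2660 lower (19.1%) in DRF ZT16. The excess of lower calls varied with the scaling. The median difference of all genes was -0.10, and rescaling each library by the median of its gene ratios brought it to 0.01. The rescaled values gave 3045 calls, 1388 higher (9.99%) and 1657 lower (11.9%), while TPM without the mitochondrially encoded genes gave 558 higher and 2883 lower. All 490 higher calls and 1657 of the lower calls were shared by the main and the rescaled values, and 0 genes were called with opposite signs. Most differences were small, with a median absolute size of 0.38 among the called genes, and 158 of them were at least 1 in size, 65 higher and 93 lower. The 4 libraries of each group did not overlap for 2675 genes (19.3%), of which 2109 were called. Leaving out NRF ZT4 replicate 4 brought the calls down to 1533, and leaving out DRF ZT16 replicate 4 brought them to 2092. With only the groups compared in the fit, 1620 genes were called, 354 higher and 1266 lower.

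**Figure D1:**
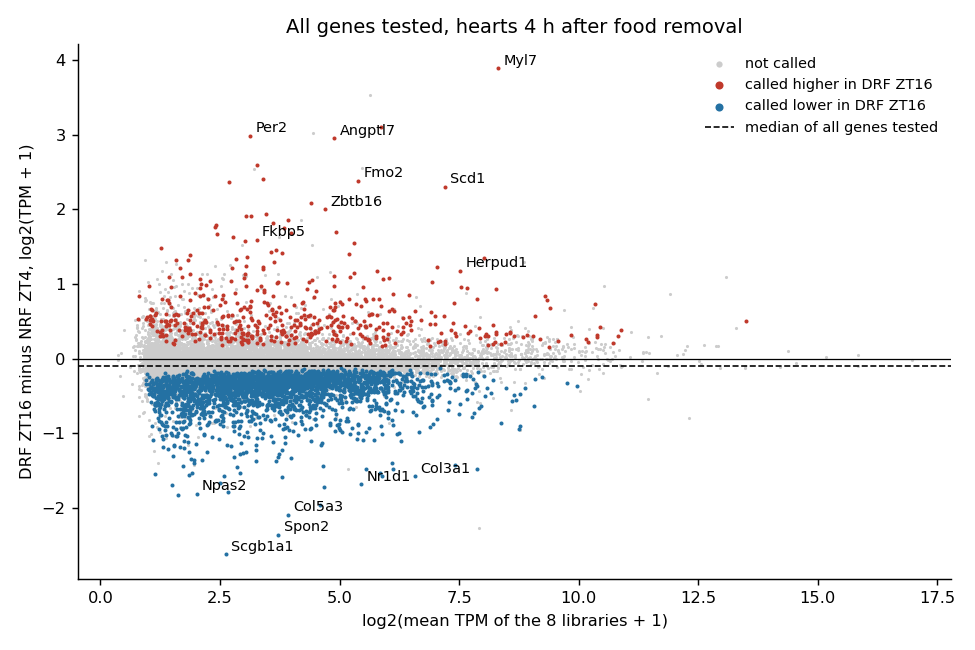
Each point is a gene, placed by its mean level in the 8 libraries (x axis, log2(mean TPM + 1)) and by its difference DRF ZT16 minus NRF ZT4 (y axis, log2(TPM + 1)), with 490 genes called higher in red and 2660 called lower in blue. The dashed line at -0.10 is the median of all 13893 genes, and Per2, Angptl7, Fmo2 and Scd1 rise above the cloud while Scgb1a1, Spon2 and Col5a3 lie below it.

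Clock genes differed in both directions. Of the 19 genes of the core clock list, 10 were called higher and 4 lower in DRF ZT16 (the share over all genes was 3.53% and 19.1%), with a median difference of 0.56. Rescaling gave 11 and 4 (9.99% and 11.9% over all genes). The higher calls included the period genes Per1, Per2 and Per3 and the lower calls the activators Arntl, Npas2 and Clock. Per2, a repressor of CLOCK and BMAL1 (Ensembl ENSMUSG00000055866, minus strand of chr1:91415982-91459324, build GRCm38), measured 20.1, 14.8, 12.2 and 10.8 TPM in the DRF ZT16 libraries and 1.10, 0.649, 1.19 and 0.753 TPM in the NRF ZT4 libraries. Every DRF ZT16 library was above every NRF ZT4 library, and the difference was 2.98 ± 0.24 (adjusted p = 2.17e-12). Per3, its paralog, measured 9.70, 6.34, 7.06 and 6.16 TPM against 0.855, 1.63, 1.48 and 1.66 TPM, again without overlap, and the difference was 1.78 ± 0.18 (adjusted p = 7.13e-10). Per1 stood at 30.3, 10.4, 12.6 and 12.6 TPM against 2.27, 5.60, 4.98 and 8.63 TPM, and replicate 1 of DRF ZT16 was far above the rest (1.43 ± 0.36, adjusted p = 0.00348).

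The activators ran the other way. Arntl measured 2.49, 3.91, 2.65 and 2.53 TPM in DRF ZT16 and 10.02, 9.15, 8.52 and 10.4 TPM in NRF ZT4, a difference of -1.45 ± 0.23 (adjusted p = 1.25e-05). Npas2, which can take the place of CLOCK, measured 0.806, 0.936, 0.678 and 0.680 TPM against 4.42, 5.35, 4.43 and 6.88 TPM, a difference of -1.81 ± 0.18 (adjusted p = 3.6e-10). For both genes the libraries of the groups were well apart. Clock itself differed less, with 7.76, 9.74, 8.53 and 7.02 TPM against 10.2, 9.80, 12.6 and 12.3 TPM and a difference of -0.40 ± 0.09 (adjusted p = 0.00119).

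The nuclear receptors of the loop did not move together. Nr1d1, the gene of the repressor REV-ERBα, measured 28.6, 15.6, 18.6 and 17.9 TPM in DRF ZT16 and 57.3, 76.2, 63.1 and 65.5 TPM in NRF ZT4, a difference of -1.68 ± 0.27 (adjusted p = 1.71e-05). Its close relative Nr1d2 was higher instead, at 52.6, 41.3, 45.8 and 38.2 TPM against 23.4, 31.3, 31.4 and 35.5 TPM (0.54 ± 0.19, adjusted p = 0.0321), a call that was lost when DRF ZT16 replicate 1 or 3, or NRF ZT4 replicate 1 or 2, was left out (adjusted p = 0.0527 to 0.106). Nr1d1 overlaps Thra on the opposite strand, and the library kit did not mark strand, so reads of the 2 genes cannot be told apart where they overlap. Rora, a receptor that competes with REV-ERB for the same elements and activates, was higher by 0.39 ± 0.10 (adjusted p = 0.00412). The cryptochromes, partners of the PER proteins, were higher as well, Cry1 at 17.5, 17.4, 16.8 and 14.5 TPM against 9.69, 6.19, 6.98 and 7.96 TPM (1.03 ± 0.16, adjusted p = 5.99e-06) and Cry2 by 0.65 ± 0.11 (adjusted p = 1.67e-05).

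Among the output factors, Tef and Hlf, transcription factors of the PAR bZIP family that bind D-box elements, rose clear of overlap. Tef measured 72.3, 53.5, 54.7 and 49.2 TPM against 14.5, 22.5, 18.1 and 20.6 TPM (1.56 ± 0.16, adjusted p = 7.98e-10), and Hlf measured 17.6, 11.99, 13.6 and 11.8 TPM against 3.93, 6.40, 5.26 and 6.14 TPM (1.20 ± 0.15, adjusted p = 7.46e-08). Dbp, the third of this family, did not pass the test. It measured 55.8, 10.6, 16.1 and 16.4 TPM in DRF ZT16 and 7.86, 16.9, 10.6 and 13.6 TPM in NRF ZT4 (0.72 ± 0.42, adjusted p = 0.223), and its DRF ZT16 libraries overlapped those of NRF ZT4 apart from replicate 1. The other 4 clock genes without a call were Ciart (0.46), Bhlhe40 (0.14), Bhlhe41 (0.19) and Nfil3 (0.58, adjusted p = 0.0812, and 0.047 after rescaling), which are repressors. DRF ZT16 replicate 1 was the highest of its group for Dbp, Per1, Per2, Per3, Ciart, Bhlhe41, Nr1d1, Nr1d2, Tef and Hlf, and without it the list gave 9 higher and 4 lower calls.

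**Figure D2:**
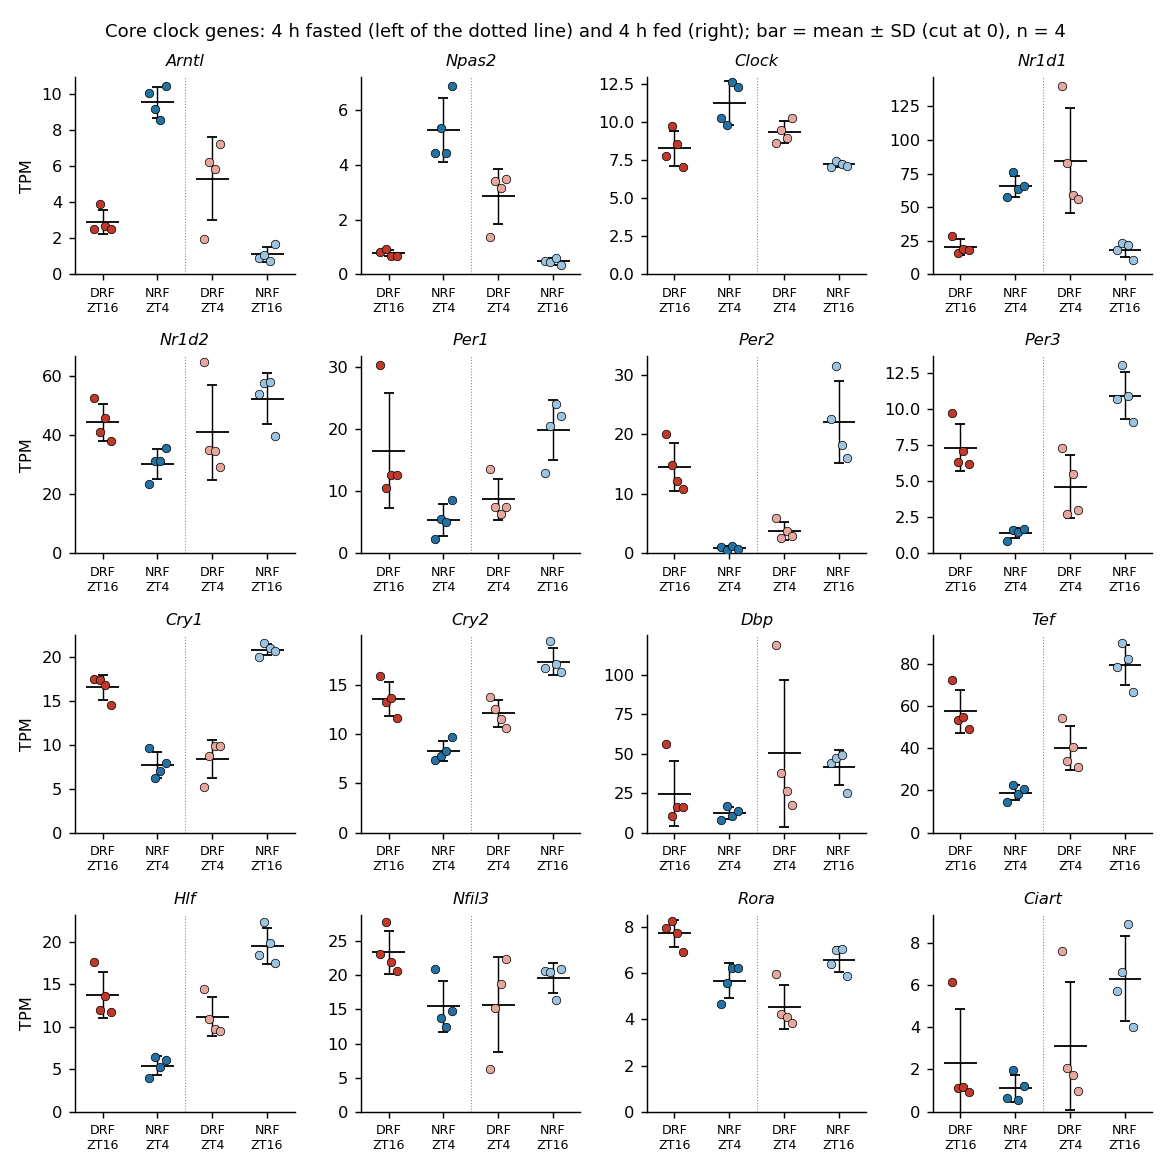
TPM of 16 clock genes in every library of the 2 groups 4 h into fasting (left of the dotted line) and the 2 groups 4 h into feeding (right), with the mean ± SD of 4 libraries, bars cut at 0. Means of Per2, Per3, Tef and Hlf are highest in DRF ZT16 and NRF ZT16, Arntl, Npas2 and Nr1d1 in NRF ZT4 and DRF ZT4, and the DRF ZT16 library at 55.8 TPM of Dbp stands apart from the other 3 of its group.

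Set beside the fed groups, the levels of Per2 and Arntl lay by light phase. Per2 averaged 14.5 ± 4.07 TPM in DRF ZT16 and 22.1 ± 6.90 TPM in NRF ZT16, both dark, against 0.924 ± 0.264 TPM in NRF ZT4 and 3.84 ± 1.51 TPM in DRF ZT4, both light (SD, n = 4). Arntl averaged 2.90 ± 0.678 and 1.10 ± 0.410 TPM in the dark groups and 9.53 ± 0.859 and 5.29 ± 2.30 TPM in the light groups. In both genes the DRF groups lay between the NRF groups.

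The core promoters of 3 clock genes from each direction are printed so that the elements of the loop can be read beside the values. They run 5′ to 3′ on the strand of the gene, from 250 bases before to 50 bases after a start site, and come from RefSeq (GRCm38.p6). Capitals mark matches, on either strand, to the E-box CACGTG (held by 7.15% of 32851 promoters of this length), its variant CACGTT (4.68%), the D-box TTATGTAA (0.938%), the ROR elements TAGGTCA (2.61%) and TGGGTCA (3.98%) and the CRE TGACGTCA (1.79%). No match overlapped another. The higher genes are Per3 (minus strand of chr4:151044616-151044915), Tef (plus strand of chr15:81802423-81802722) and Per1 (plus strand of chr11:69098699-69098998).
Per3: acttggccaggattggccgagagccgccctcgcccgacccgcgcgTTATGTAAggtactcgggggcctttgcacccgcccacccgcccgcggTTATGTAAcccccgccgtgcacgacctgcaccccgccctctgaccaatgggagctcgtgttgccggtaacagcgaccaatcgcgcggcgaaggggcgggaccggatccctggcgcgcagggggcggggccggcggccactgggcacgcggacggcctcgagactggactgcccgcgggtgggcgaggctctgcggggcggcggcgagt
Tef: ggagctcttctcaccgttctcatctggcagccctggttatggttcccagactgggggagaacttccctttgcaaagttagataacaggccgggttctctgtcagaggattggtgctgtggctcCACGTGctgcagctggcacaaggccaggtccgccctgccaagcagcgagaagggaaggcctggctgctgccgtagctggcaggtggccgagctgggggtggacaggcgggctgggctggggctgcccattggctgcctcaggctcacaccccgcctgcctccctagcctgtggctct
Per1: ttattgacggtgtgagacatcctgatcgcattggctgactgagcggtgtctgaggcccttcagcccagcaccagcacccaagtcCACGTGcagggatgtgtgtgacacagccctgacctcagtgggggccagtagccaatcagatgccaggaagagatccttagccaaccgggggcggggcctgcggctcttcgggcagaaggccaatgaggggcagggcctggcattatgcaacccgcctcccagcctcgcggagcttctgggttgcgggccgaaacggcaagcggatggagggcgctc
Per3 holds the D-box at positions 46 and 93, Tef the E-box at position 124 and Per1 the E-box at position 85, counted from the first base printed. Tef, Per1 and Arntl each have 2 entries, and the start nearest to the annotated gene start was used. The lower genes are Npas2 (plus strand of chr1:39194022-39194321), Nr1d1 (minus strand of chr11:98775328-98775627) and Arntl (plus strand of chr7:113207215-113207514).
Npas2: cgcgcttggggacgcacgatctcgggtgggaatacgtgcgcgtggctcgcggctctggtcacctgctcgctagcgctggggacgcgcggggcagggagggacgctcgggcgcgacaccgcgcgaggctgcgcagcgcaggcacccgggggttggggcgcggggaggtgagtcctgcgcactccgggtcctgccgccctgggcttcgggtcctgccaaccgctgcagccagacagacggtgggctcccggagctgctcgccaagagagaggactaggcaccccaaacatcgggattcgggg
Nr1d1: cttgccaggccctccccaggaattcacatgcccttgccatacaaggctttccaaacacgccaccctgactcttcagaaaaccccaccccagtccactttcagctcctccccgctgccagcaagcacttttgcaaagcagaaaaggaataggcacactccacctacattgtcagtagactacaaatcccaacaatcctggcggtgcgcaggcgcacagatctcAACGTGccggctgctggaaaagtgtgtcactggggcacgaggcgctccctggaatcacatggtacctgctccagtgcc
Arntl: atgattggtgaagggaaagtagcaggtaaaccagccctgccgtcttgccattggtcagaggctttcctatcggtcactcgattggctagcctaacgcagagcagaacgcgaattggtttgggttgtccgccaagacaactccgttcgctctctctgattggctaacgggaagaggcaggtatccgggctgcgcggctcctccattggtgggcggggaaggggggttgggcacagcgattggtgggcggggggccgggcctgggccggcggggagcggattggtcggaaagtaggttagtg
Nr1d1 holds the E-box variant at position 223, and the windows of Npas2 and Arntl hold 0 exact matches to the 6 motifs. Inexact matches and bases outside the window were not searched, so 0 does not mean that a promoter lacks these elements. The promoter of Per2 is not printed. A match is a description of the letters, not of binding.

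Outside the clock, the 12 largest rises among called genes whose libraries did not overlap were, besides Per2, a mixed group. Angptl7, a secreted protein of the angiopoietin-like family (ENSMUSG00000028989, minus strand of chr4:148495183-148500460, overlapped by Mtor on the opposite strand), measured 44.2, 49.98, 50.9 and 58.1 TPM in DRF ZT16 and 4.04, 9.82, 8.45 and 2.87 TPM in NRF ZT4, a difference of 2.95 ± 0.29 (adjusted p = 5.72e-10). The DRF ZT16 libraries were tight and about as high as those of NRF ZT16, which averaged 47.8 ± 11.8 TPM (SD, n = 4). Fmo2, a flavin-containing monooxygenase that oxidises drugs and other foreign compounds, measured 69.4, 68.7, 70.01 and 67.7 TPM against 10.8, 13.02, 19.1 and 8.68 TPM, a difference of 2.38 ± 0.22 (adjusted p = 8.61e-11). Inmt, a methyltransferase of indoles such as tryptamine, measured 30.1, 28.5, 32.2 and 41.7 TPM against 5.58, 7.26, 10.5 and 5.34 TPM (2.09 ± 0.26, adjusted p = 1.68e-07). Nmb, which encodes the peptide neuromedin B, measured 19.2, 16.4, 16.1 and 20.1 TPM against 6.19, 2.67, 4.94 and 4.15 TPM (1.82 ± 0.25, adjusted p = 7.53e-07), and Ahsg, the gene of the plasma protein fetuin-A, measured 20.1, 11.3, 14.02 and 20.8 TPM against 2.56, 3.13, 5.65 and 3.02 TPM (1.94 ± 0.41, adjusted p = 0.000519). All 5 of these genes kept their call in every alternative tried, though the difference of Ahsg was 1.21 with the summed atrial, adipocyte, erythroid and mesothelial markers as covariates.

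The remaining rises were less firm or less known. Gm45819, an uncharacterised transcript on chromosome 7, measured 22.1, 14.5, 17.4 and 13.5 TPM against 2.17, 2.42, 1.98 and 2.78 TPM (2.40 ± 0.26, adjusted p = 2.17e-09), and Gm25047, a small nuclear RNA poorly captured by poly(A) selection, measured 7.76, 22.2, 17.3 and 4.94 TPM against 0.530, 2.81, 2.51 and 4.43 TPM (1.91 ± 0.50, adjusted p = 0.00438). Hamp, the gene of the iron hormone hepcidin, measured 8.70, 5.06, 5.52 and 19.4 TPM against 0, 3.56, 1.43 and 0 TPM (2.36 ± 0.82, adjusted p = 0.0306) and lost its call without replicate 1 or 4 of either group, with limma-voom (adjusted p = 0.0746) and on the deposited values (adjusted p = 0.112). With the summed atrial, adipocyte, erythroid and mesothelial markers as covariates the Hamp difference was 1.01 (adjusted p = 0.214). Cyp1a1, the classic target of the aryl hydrocarbon receptor, measured 21.1, 4.76, 5.58 and 17.7 TPM against 2.93, 2.70, 1.48 and 1.204 TPM (1.91 ± 0.63, adjusted p = 0.0246) and ranged from 4.31 to 166 TPM in NRF ZT16. Its call was lost in 4 of the 8 fits that left out a library, with limma-voom (adjusted p = 0.133) and with the marker covariates (adjusted p = 0.0553). Myl7, the atrial myosin light chain, had the largest fitted difference of all genes (3.89 ± 1.30, adjusted p = 0.026), but its libraries overlapped, at 753, 298, 274 and 797 TPM against 4.11, 345, 62.1 and 8.25 TPM, and its call was lost without replicate 1 or 4 of either group. Myl7 is itself one of the atrial markers summed above, so its fit with that sum as a covariate bears on nothing and is not given, and the part of atrial tissue in the result was not tested.

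Several glucocorticoid-responsive genes were higher. Of 12 tested, 6 were called higher (against 3.53% of all genes) and 0 lower, with a median difference of 0.56 against -0.10 over all genes. Rescaling gave 7 and 0 (9.99% and 11.9% over all genes). Zbtb16, a zinc finger repressor induced by glucocorticoids, measured 58.6, 32.9, 35.1 and 32.7 TPM in DRF ZT16 and 15.996, 6.51, 11.8 and 4.89 TPM in NRF ZT4, a difference of 1.998 ± 0.38 (adjusted p = 0.000149). Fkbp5, a chaperone partner of the glucocorticoid receptor, measured 20.7, 15.6, 8.01 and 10.2 TPM against 3.70, 3.12, 3.49 and 4.01 TPM (1.60 ± 0.26, adjusted p = 1.71e-05). The groups did not overlap in either gene. Tsc22d3, which encodes the anti-inflammatory protein GILZ, averaged 75.4 against 32.2 TPM (1.18 ± 0.20, adjusted p = 4.33e-05), and the metallothionein Mt1 measured 330.3, 341, 229.6 and 294 TPM against 182, 165, 186 and 145 TPM (0.80 ± 0.15, adjusted p = 0.000119). Lcn2 (0.83 ± 0.21) and Sult1a1 (0.48 ± 0.16) made up the 6. Klf9 had a difference of 0.32 ± 0.14 and was called after rescaling (adjusted p = 0.11 before and 0.0206 after) and by limma-voom (adjusted p = 0.0204), and Sgk1 (-0.17), Nfkbia (-0.25) and Cdkn1a (-0.33) had values below 0 without a call. Mice release corticosterone before their active phase, and no hormone was measured here.

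Insulin- and FOXO-responsive genes gave 5 higher and 0 lower calls of 17 (against 3.53% and 19.1% over all genes), with a median difference of 0.23. Without NRF ZT4 replicate 1 they gave 3 higher and 2 lower calls, and without NRF ZT4 replicate 2 they gave 4 and 1. Klf15, a transcription factor of nutrient metabolism that is also a glucocorticoid target, measured 77.3, 50.6, 53.02 and 51.3 TPM against 30.99, 35.3, 25.1 and 25.6 TPM (0.96 ± 0.22, adjusted p = 0.00162). Sesn1, a sestrin that restrains mTORC1, measured 127, 113, 111 and 93.9 TPM against 58.3, 65.9, 55.7 and 63.6 TPM (0.86 ± 0.10, adjusted p = 4.26e-08). Both genes were higher without overlap. The others were the insulin receptor substrate Irs2 (0.75 ± 0.27, adjusted p = 0.0363), Foxo3 (0.70 ± 0.13, adjusted p = 0.000131) and Pik3ip1, an inhibitor of PI3-kinase (0.56 ± 0.17, adjusted p = 0.0141).

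Of 13 temperature-responsive genes, 1 was called higher and 2 lower (3.53% and 19.1% over all genes). With only the groups compared in the fit, 3 were called higher and 0 lower, so both lower calls were lost. Cirbp and Rbm3, RNA-binding proteins that rise when body temperature falls, were lower in DRF ZT16, at 36.6, 22.1, 17.3 and 22.7 TPM against 31.5, 62.2, 34.1 and 52.5 TPM for Cirbp (-0.84 ± 0.18, adjusted p = 0.000771) and at means of 19.03 against 30.1 TPM for Rbm3 (-0.59 ± 0.17, adjusted p = 0.00757). The Cirbp libraries overlapped, since DRF ZT16 replicate 1 was high. Hspa8, the constitutive HSP70 chaperone, was higher, at 711, 924, 824 and 812 TPM against 519.8, 397, 505 and 482 TPM (0.78 ± 0.16, adjusted p = 0.000492). The other 10 members did not pass the test, and 4 more chaperone and co-chaperone genes (Bag3, Hspb1, Hsp90aa1 and Hspa1a) were called higher after rescaling. Hsp90ab1 could not be recovered and was not tested.

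Calls among lipid synthesis genes were mostly higher for fatty acid synthesis, where they rested on 1 library, and lower for cholesterol synthesis. Of 15 genes of fatty acid synthesis and desaturation, 5 were called higher and 1 lower (against 3.53% and 19.1% over all genes). Rescaling gave 8 higher and 1 lower (against 9.99% and 11.9% over all genes). Scd1, which makes monounsaturated fatty acids, measured 132, 641, 104 and 137 TPM in DRF ZT16 and 33.2, 36.96, 57.1 and 27.1 TPM in NRF ZT4 (2.30 ± 0.67, adjusted p = 0.0109), and Fasn, fatty acid synthase, measured 27.9, 115, 20.6 and 27.996 TPM against 8.52, 11.2, 14.9 and 9.40 TPM (1.69 ± 0.47, adjusted p = 0.00775). Replicate 2 was by far the highest DRF ZT16 library for both genes and is also the library with the highest white adipocyte markers (181 TPM). With the atrial, adipocyte, erythroid and mesothelial sums as covariates Scd1 had a difference of 1.38 (adjusted p = 0.00259) and Fasn one of 1.06 (adjusted p = 0.00242). Without it the list gave 0 higher and 2 lower calls, Scd1 had a difference of 1.71 (adjusted p = 0.0781) and Fasn a difference of 1.15 (adjusted p = 0.0783), although the other 3 libraries stayed above all NRF ZT4 libraries for both genes. The higher calls numbered 3 without NRF ZT4 replicate 2 or 4 and 2 with only the groups compared in the fit. Elovl6 (0.99 ± 0.35), Acaca (0.84 ± 0.25) and Thrsp (0.80 ± 0.27) were the other higher calls. Scd4, a desaturase close in sequence to Scd1, was called lower, with a mean of 3.28 against 10.6 TPM (-1.26 ± 0.32, adjusted p = 0.00388).

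Cholesterol synthesis and uptake gave 12 lower and 0 higher calls of 18 genes tested (against 19.1% lower over all genes), a median difference of -0.40, and all 18 differences were below 0. Rescaling left 11 lower calls (against 11.9% of all genes) and a median of -0.30. The reductase Hsd17b7 measured 6.09, 5.39, 5.28 and 5.13 TPM in DRF ZT16 and 8.86, 8.92, 10.2 and 13.98 TPM in NRF ZT4, without overlap (-0.81 ± 0.13, adjusted p = 1.96e-05). Srebf2, the transcription factor that drives the pathway, averaged 12.6 against 18.02 TPM (-0.47 ± 0.09, adjusted p = 0.000192), and the enzymes Sqle (-0.68), Dhcr7 (-0.67) and Idi1 (-0.55) were called as well. Fdft1 (-0.16 ± 0.08) and Insig1 (-0.02 ± 0.12), among others, were not. Leaving out any library kept 11 to 14 lower calls.

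Genes of the extracellular matrix were lower in DRF ZT16, 12 of 15 by the test (against 19.1% of all genes) and 15 of 15 by sign (against 9730 of 13893). The median difference was -0.99 against -0.10 over all genes, and rescaling gave 12 lower calls as well (against 11.9% of all genes). Every called member had libraries without overlap. Col5a3, a chain of the minor fibrillar collagen type V (ENSMUSG00000004098, minus strand of chr9:20770050-20815067), measured 5.63, 4.91, 4.19 and 3.98 TPM in DRF ZT16 and 16.2, 22.2, 23.6 and 32.5 TPM in NRF ZT4, a difference of -2.09 ± 0.17 (adjusted p = 2.17e-12). Col3a1, of the fibrillar collagen type III, measured 51.5, 38.6, 50.8 and 40.5 TPM against 85.7, 134, 147 and 203 TPM (-1.58 ± 0.25, adjusted p = 1.21e-05), and Col4a1, of the basement membrane, measured 130.4, 127, 115 and 108 TPM against 256, 331, 299 and 492 TPM (-1.47 ± 0.21, adjusted p = 1.17e-06). Sparc, a collagen-binding glycoprotein and the most abundant member, measured 297, 288, 300.4 and 279.9 TPM against 458, 558, 479.5 and 797 TPM (-0.94 ± 0.20, adjusted p = 0.000745).

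The DRF ZT16 libraries lay closer together than those of NRF ZT4 in these 4 genes, and replicate 4 of NRF ZT4 was the highest of its group in each. Postn (-0.54), Col1a2 (-0.48) and Fn1 (-0.22) did not pass. Beside this change, the summed endothelial markers and those of smooth muscle and pericytes lay lower in every DRF ZT16 library and fibroblast markers overlapped, as given above, and the part of cell content in the matrix result was not tested. With the summed atrial, adipocyte, erythroid and mesothelial markers as covariates 13 matrix genes were called lower. That fit left out the endothelial and the smooth muscle and pericyte sums, so it does not bear on the content of those cells. Without any 1 library 12 to 14 matrix genes were called lower.

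The largest falls outside the lists included further matrix and secreted proteins. Spon2, the secreted matrix protein spondin 2 (ENSMUSG00000037379, minus strand of chr5:33198184-33218455), measured 1.70, 3.15, 4.90 and 3.51 TPM in DRF ZT16 and 25.2, 14.2, 17.6 and 26.7 TPM in NRF ZT4 (-2.36 ± 0.37, adjusted p = 1.13e-05). Fbn1, the microfibril protein fibrillin-1, measured 11.4, 10.7, 10.2 and 9.69 TPM against 24.3, 38.96, 36.7 and 53.2 TPM (-1.72 ± 0.18, adjusted p = 1.79e-09), and Adamts4, a protease that cuts aggrecan and versican, measured 0.141, 0.569, 0.314 and 0.261 TPM against 2.73, 3.86, 2.48 and 6.37 TPM (-1.82 ± 0.17, adjusted p = 5.14e-11). Cx3cr1, the fractalkine receptor of resident macrophages, measured 1.66, 2.18, 1.93 and 1.53 TPM against 6.77, 11.4, 7.22 and 10.2 TPM (-1.79 ± 0.18, adjusted p = 5.33e-10), while the summed macrophage markers overlapped between the groups. These 4 genes were apart in all libraries.

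Of the other falls, Scgb1a1, the club cell protein of the airway, measured 4.37, 0, 0 and 0 TPM against 5.10, 12.1, 5.21 and 14.5 TPM (-2.62 ± 0.97, adjusted p = 0.0435). It is a lung epithelium marker and lost its call in 5 of the 8 fits without a library. The remaining 4 were small or non-coding RNAs or a pseudogene. The mitochondrial tRNA gene mt-Tv was listed at 0 in 3 DRF ZT16 libraries (-1.68), Gm22009 (-1.95) is a small Cajal body RNA inside Kpna4, Gm24494 (-1.67) is a snoRNA inside Rabggtb, and Gm12966 (-1.59) is a processed pseudogene, whose reads may belong to its parent gene.

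**Figure D3:**
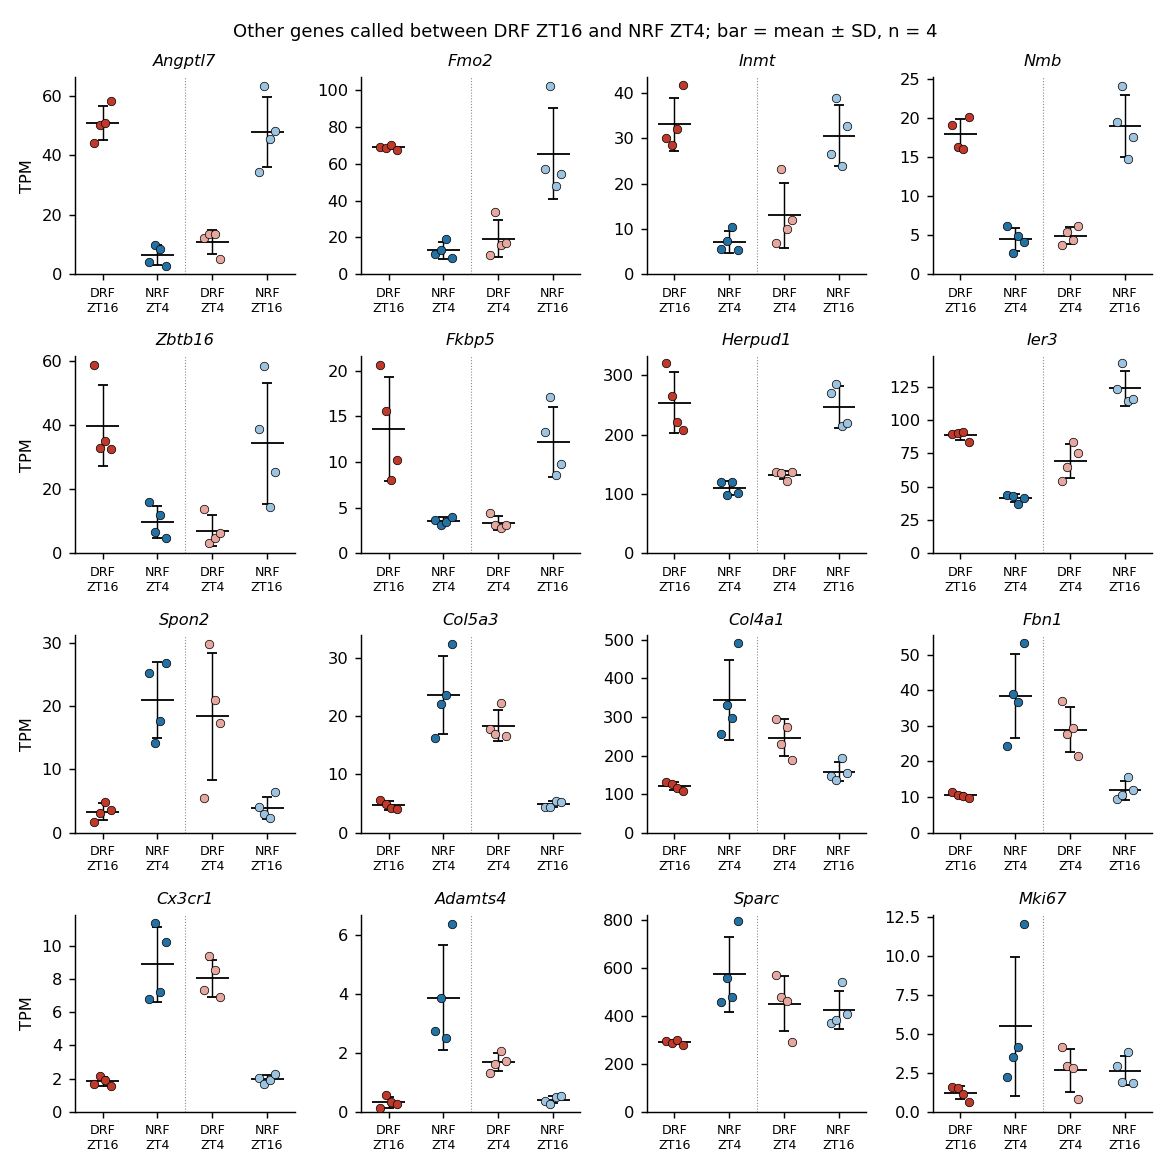
TPM of 16 genes outside the clock in every library of DRF ZT16, NRF ZT4, DRF ZT4 and NRF ZT16, with the mean ± SD of 4 libraries. Angptl7, Fmo2, Inmt and Nmb are high in the dark groups (DRF ZT16 and NRF ZT16) and Spon2, Col5a3, Fbn1 and Cx3cr1 in the light groups, and NRF ZT4 replicate 4 is the highest point of Col4a1 and Mki67.

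Genes of DNA replication and cell division gave 11 lower and 0 higher calls of 12 (against 19.1% lower over all genes), with a median difference of -0.77, and 7 lower calls with only the groups compared in the fit. Mki67, the proliferation marker Ki-67, measured 1.59, 1.54, 1.13 and 0.653 TPM in DRF ZT16 and 2.24, 3.49, 4.17 and 12.1 TPM in NRF ZT4 (-1.35 ± 0.33, adjusted p = 0.00285). The S-phase cyclin Ccna2 measured 1.19, 1.07, 0.682 and 0.616 TPM against 1.53, 4.26, 2.74 and 10.99 TPM (-1.40 ± 0.34, adjusted p = 0.00215), and the replicative helicase subunit Mcm6 measured 6.55, 6.70, 7.37 and 6.25 TPM against 8.55, 9.94, 8.36 and 17.4 TPM (-0.59 ± 0.17, adjusted p = 0.0104). Replicate 4 of NRF ZT4 was far the highest library in all 3 genes. It also had the highest summed markers of endothelial cells (758 TPM) and of smooth muscle and pericytes (1019 TPM) in its group, and the part of cell content was not tested. Without this library, 4 of the 12 were called lower, Mki67 had a difference of -0.94 (adjusted p = 0.0535) and Mcm6 a difference of -0.37 (adjusted p = 0.147). The sliding clamp Pcna, at 37.1, 37.2, 40.4 and 35.1 TPM against 42.3, 49.6, 38.3 and 64.4 TPM, had a difference of -0.34 ± 0.11 (adjusted p = 0.0184), but of -0.20 (adjusted p = 0.219) without that library, and its call was lost in 5 settings.

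The calls among the fatty acid oxidation genes singled out by the study rested largely on a pair of libraries. Of 6 genes of fatty acid oxidation singled out by the study, a choice made on the full series that includes these libraries, 3 were called lower (against 19.1% of all genes) and 0 higher, with a median difference of -0.41. Rescaling left 2 of the calls, the summed markers as covariates left 1, and fitting only the groups compared left 0. Ucp3, a mitochondrial carrier induced by fatty acids, measured 24.6, 20.9, 15.9 and 18.8 TPM in DRF ZT16 and 32.3, 24.4, 105 and 127 TPM in NRF ZT4 (-1.48 ± 0.43, adjusted p = 0.0106). Ehhadh, of peroxisomal oxidation, measured 8.13, 9.01, 7.69 and 7.99 TPM against 10.6, 8.99, 17.9 and 16.97 TPM (-0.62 ± 0.18, adjusted p = 0.0118), and Cpt1a, a carnitine palmitoyltransferase, measured 33.03, 30.3, 27.9 and 26.2 TPM against 30.9, 33.3, 48.5 and 58.1 TPM (-0.48 ± 0.17, adjusted p = 0.0386). In each of these 3 genes replicates 3 and 4 of NRF ZT4 were high and replicates 1 and 2 lay within or near the range of DRF ZT16. The Cpt1a call was also lost without DRF ZT16 replicate 2, 3 or 4 (adjusted p = 0.0573 to 0.117), which left 2 of the 6 called. Leaving out either of the high libraries left 0 of the 6 called, with Ucp3 at -1.19 (adjusted p = 0.0516) without replicate 3 and at -1.10 (adjusted p = 0.103) without replicate 4. Pdk4, the kinase that shuts off pyruvate dehydrogenase, showed the same pair of libraries, at 232, 106, 1279.7 and 979 TPM in NRF ZT4 against 202, 292, 160.3 and 228 TPM in DRF ZT16 (-0.96 ± 0.46, adjusted p = 0.126). Without NRF ZT4 replicate 2, its lowest library, Pdk4 was called lower at -1.61 (adjusted p = 0.00703).

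The 25 other genes of fatty acid oxidation gave 1 higher and 2 lower calls, 4% and 8% of the list against 3.53% and 19.1% over all genes. After rescaling they gave 6 higher and 0 lower calls (9.99% and 11.9% over all genes), so the direction of the calls varied with the scaling. The lower calls, Acot2, a mitochondrial thioesterase (-0.61 ± 0.19, adjusted p = 0.018), and Mlycd, which removes malonyl-CoA (-0.35 ± 0.12, adjusted p = 0.0214), were lost on rescaling. The abundant enzymes differed little, with 989 ± 60.9 TPM of Acadl in DRF ZT16 against 1023 ± 26.4 in NRF ZT4 (SD, n = 4). For Acadl the 95% interval of the difference was -0.17 to 0.07.

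Of 13 genes of lipid uptake and storage, 1 was called higher and 2 lower (3.53% and 19.1% over all genes). Cd36, a fatty acid transporter, was lower (-0.36 ± 0.09, adjusted p = 0.00438) as was the monoglyceride lipase Mgll (-0.36 ± 0.12, adjusted p = 0.0266), and both calls were lost on rescaling. Dgat2, which completes triglycerides, was higher at 342, 294, 246 and 226 TPM against 201, 215, 196 and 215 TPM (0.40 ± 0.11, adjusted p = 0.00843) under both scalings, though not without DRF ZT16 replicate 1 or with only the groups compared in the fit (adjusted p = 0.0524). Glucose uptake and glycolysis gave 2 higher calls of 17 (7 after rescaling, against 3.53% and 9.99% of all genes) and 0 lower, Pfkfb2, the cardiac activator of phosphofructokinase (0.62 ± 0.18, adjusted p = 0.00879), and the muscle enolase Eno3 (0.21 ± 0.07, adjusted p = 0.0291). The Eno3 call was lost in 7 settings (adjusted p = 0.0512 to 0.172), among them the fits without DRF ZT16 replicate 1 or 4 or NRF ZT4 replicate 3 or 4. Gapdh, at means of 71.9 against 14.3 TPM and without a call, has many processed pseudogenes, so its values are uncertain.

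Stress genes were called in both directions. Of 19 endoplasmic reticulum genes, 2 were called higher and 2 lower (3.53% and 19.1% over all genes). Herpud1, a component of the machinery that removes misfolded proteins, was higher at 321, 266, 222 and 208 TPM against 121, 98.8, 121 and 102 TPM (1.18 ± 0.13, adjusted p = 7.67e-09), as was the stress factor Ddit3 (0.59 ± 0.15, adjusted p = 0.00422). The chaperones Hspa5 (-0.17 ± 0.15) and Calr (-0.10 ± 0.11) did not pass, and Pdia3 (-0.30) and Sel1l (-0.22) were called lower until rescaling. Of 16 immediate early genes, 2 were called higher and 0 lower (3.53% and 19.1% over all genes). Ier3 was higher at 89.2, 90.03, 91.03 and 83.4 TPM against 43.6, 43.1, 37.3 and 41.6 TPM (1.08 ± 0.17, adjusted p = 6.27e-06) and Atf3 was higher by 0.98 ± 0.29 (adjusted p = 0.0107). Fos, Jun, Egr1 and 11 others did not pass. Of 5 NRF2 targets tested, 3 were called lower and 0 higher (19.1% and 3.53% over all genes), and 5 differences were below 0 (9730 of 13893 over all genes). Nqo1, a quinone reductase, was lower at 49.05, 39.4, 38.2 and 39.3 TPM against 60.6, 72.4, 57.1 and 68.1 TPM (-0.63 ± 0.10, adjusted p = 2.63e-05). Txnrd1 (-0.34 ± 0.07) and Srxn1 (-0.32 ± 0.09) were lower as well, the last until rescaling.

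Of 18 ion channel and calcium handling genes, 4 (22.2%) were called lower and 0 higher, a share near the 19.1% lower over all genes. The 4 were Hcn2, a pacemaker channel (-0.46 ± 0.14), Gja1, the gap junction protein connexin 43 (-0.44 ± 0.13), and the potassium channels Kcnh2 (-0.37 ± 0.12) and Kcnd2 (-0.32 ± 0.12). Rescaling left Hcn2 and Gja1, and fitting only the groups compared or leaving out DRF ZT16 replicate 4 or NRF ZT4 replicate 2 left 0. The calcium pump Atp2a2 (-0.10 ± 0.09) and its inhibitor Pln (-0.20 ± 0.08, adjusted p = 0.052) did not pass. Branched-chain amino acid breakdown (0 of 13) and mitochondrially encoded proteins (0 of 13) gave no call in any alternative that tested them (TPM without mitochondrially encoded genes leaves out the latter). Autophagy and lysosome genes gave 0 higher and 1 lower call of 15 (3.53% and 19.1% over all genes), Wipi1 (-0.31 ± 0.08, adjusted p = 0.00301). In the iron list of 8, 1 gene was called higher, Hamp as given above, and 1 lower (3.53% and 19.1% over all genes). Steap4, a metalloreductase, was lower (-0.46 ± 0.12, adjusted p = 0.00455) and Tfrc, the transferrin receptor, stood at -0.06 ± 0.26.

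Cytosolic ribosomal protein genes leaned higher by small steps. Of 81 tested, 15 were called higher and 1 lower (against 3.53% and 19.1% over all genes), 79 differences were above 0 (4163 of 13893 over all genes), and the median was 0.20. The count turned on the setting. Rescaling gave 46 higher and 0 lower calls (median 0.31, against 9.99% and 11.9% over all genes). The summed atrial, adipocyte, erythroid and mesothelial markers as covariates left 2 higher (median 0.11), as did fitting only the groups compared. Rpl36, the most abundant, measured 1804, 2064, 2038 and 2674 TPM against 1593, 1826, 1558 and 1526 TPM (0.39 ± 0.12, adjusted p = 0.0126). DRF ZT16 replicate 4 was the highest library of this gene and of Rps27a and Rps15, and without it 0 were called higher and 1 lower. Leaving out any of the other libraries gave 4 to 26 higher calls. Many of these genes have processed pseudogenes, so their levels are uncertain.

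**Figure D4:**
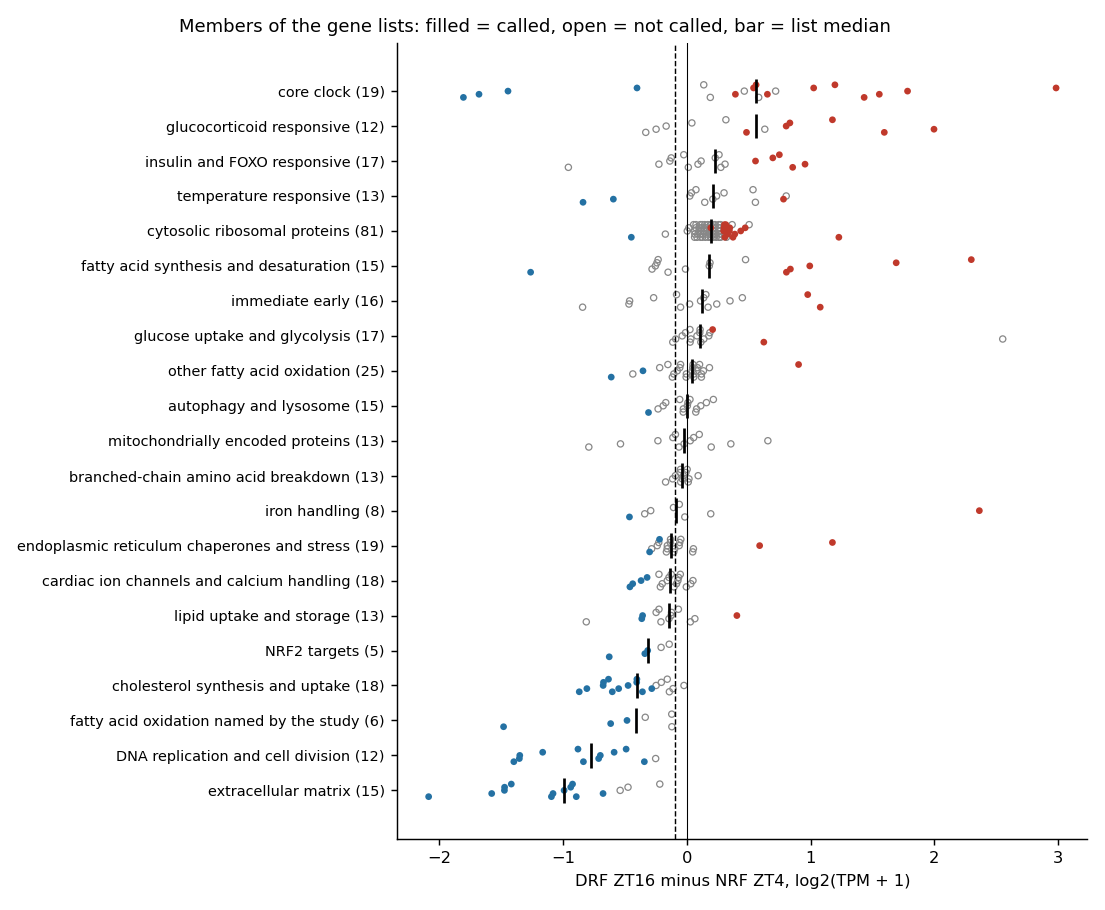
Members of 21 gene lists (y axis, number tested in brackets) by their difference DRF ZT16 minus NRF ZT4 (x axis, log2(TPM + 1)), filled where called higher (red) or lower (blue) and open where not, with the list median as a bar and the median of all genes, -0.10, as the dashed line. Extracellular matrix and DNA replication lie lowest, with medians of -0.99 and -0.77, and the clock and glucocorticoid-responsive lists highest, at 0.56.

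The mean of the 2 fasted groups was tested against the mean of the groups 4 h into feeding at the same clock times. This comparison is balanced for light phase and regimen, but a call can rest on 1 of the 2 fasted groups. It also measures how the change from ZT4 to ZT16 differs between the regimens, so food state and a rhythm altered by regimen cannot be told apart. The comparison gave 147 genes higher in fasting (1.06%) and 860 lower (6.19%), with 10 at least 1 in size, and rescaling gave 449 higher and 647 lower. DRF ZT4 replicate 1 stood with the fasted libraries in several of the genes below, and without it 1087 genes were called in place of 1007. The count fell to 603 without DRF ZT16 replicate 4, to 667 without DRF ZT4 replicate 3 and to 463 with only the groups compared in the fit. Angptl4, a secreted inhibitor of lipoprotein lipase and a PPAR target, was higher by 2.12 ± 0.41 (adjusted p = 0.000643), at 7.97, 18.02, 8.47 and 12.2 TPM in DRF ZT16 and 15.5, 3.73, 45.8 and 54.6 TPM in NRF ZT4 against 14.3, 3.06, 2.61 and 1.29 TPM in DRF ZT4 and 2.41, 2.26, 1.51 and 1.31 TPM in NRF ZT16. Every NRF ZT16 library was below every fasted library, and DRF ZT4 replicate 1 was as high as the fasted ones. Txnip, an inhibitor of glucose uptake, was higher by 1.11 ± 0.21 (adjusted p = 0.000643), with means of 539 ± 69.7 and 450.4 ± 139 TPM in the fasted groups and 267 ± 143 and 206 ± 41.3 TPM in the fed groups (SD, n = 4). Pdk4 was higher by 1.07 ± 0.32 (adjusted p = 0.0329), and 8 of the 16 fits that left out a library lost that call.

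Slc41a3, a magnesium transporter, also differed between the fasted hearts. It measured 31.8, 26.6, 26.8 and 27.7 TPM in DRF ZT16 and 75.7, 100.5, 69.1 and 90.9 TPM in NRF ZT4 (-1.53 ± 0.16, adjusted p = 8.63e-10) and was higher in fasting by 1.07 ± 0.11 (adjusted p = 1.69e-08). Adam19, a membrane protease (1.03 ± 0.11), Tmem171 (1.01 ± 0.14), the glutathione-degrading enzyme Chac1 (0.92 ± 0.22) and Tfrc (0.92 ± 0.18, adjusted p = 0.000995) completed the 8 largest rises. Arntl had a difference of 0.87 ± 0.16 (adjusted p = 0.00048) between the fasted and the fed mean. The ubiquitin ligases Fbxo32 and Trim63, markers of muscle atrophy, were called higher too, and with Txnip, Pdk4, Sesn1 and Irs1 they made 6 of 17 insulin- and FOXO-responsive genes higher in fasting and 0 lower (1.06% and 6.19% over all genes).

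Lower in the fasted than in the fed mean were Dbp (-1.29 ± 0.30, adjusted p = 0.00448), Gm45819 (-1.15 ± 0.18), Ciart (-1.05 ± 0.25), Per2 (-0.93 ± 0.17) and Per3 (-0.84 ± 0.13). Within DRF alone, by the means given earlier, Per2 was higher and Arntl lower in the fasted than in the fed group. Ppp1r3b, a subunit that directs a phosphatase to glycogen, measured 12.2, 15.3, 11.8 and 9.64 TPM in DRF ZT16 and 7.71, 8.67, 10.1 and 8.92 TPM in NRF ZT4 against 8.90, 16.8, 21.4 and 21.5 TPM in DRF ZT4 and 32.8, 34.5, 24.1 and 26.5 TPM in NRF ZT16 (-1.01 ± 0.18, adjusted p = 0.000273). The DRF ZT4 library at the fasted level is replicate 1. Inka2, an inhibitor of the kinase PAK4, averaged 17.9 ± 1.79 and 18.4 ± 2.22 TPM in the fasted groups and 31.3 ± 8.20 and 36.8 ± 1.51 TPM in the fed groups (SD, n = 4), a difference of -0.85 ± 0.15 (adjusted p = 0.000294), while the fasted groups themselves differed by -0.04 ± 0.22 (adjusted p = 0.919). Rtn4r, the Nogo receptor (-0.95 ± 0.23), was lower as well. With only the groups compared in the fit, Dbp (adjusted p = 0.0655), Ciart (adjusted p = 0.078) and, among the rises, Chac1 (adjusted p = 0.0583) and Pdk4 (adjusted p = 0.205) were not called. Matrix, cell division, ribosomal and glucocorticoid-responsive genes gave 0 calls by limma in this comparison, where 1.06% of all genes were called higher and 6.19% lower (an unadjusted p was under 0.05 for 2832 genes).

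**Figure D5:**
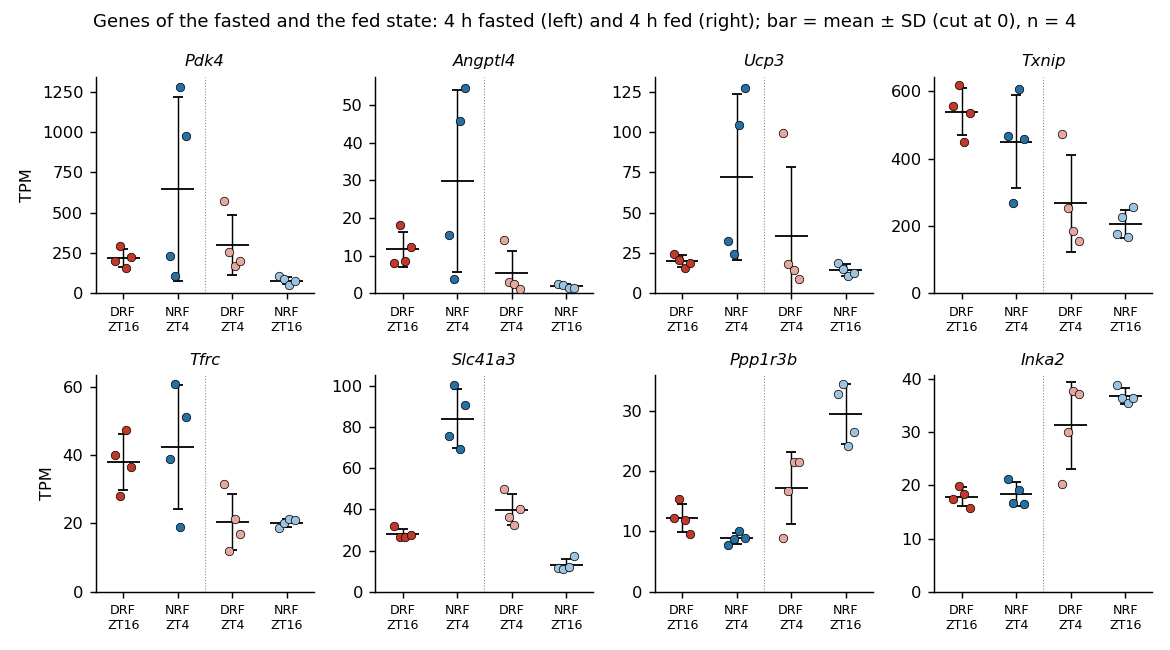
TPM of 8 genes in the fasted groups (left of the dotted line) and the fed groups (right), with the mean ± SD of 4 libraries, bars cut at 0. Means of Txnip and Tfrc are high and those of Inka2 low in both fasted groups, Slc41a3 is highest in NRF ZT4, Pdk4 and Ucp3 are raised in 2 of the 4 NRF ZT4 libraries, and DRF ZT4 replicate 1 lies with the fasted libraries for Angptl4, Txnip, Ppp1r3b and Inka2.

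The food-matched difference at 4 h of fasting was then set against the same difference at 8 h (DRF ZT20 minus NRF ZT8), which uses other libraries. It changed for 177 genes (1.27%), 90 upward and 87 downward, with 14 of the 19 clock genes among them. Rescaling gave 203 upward and 280 downward, and TPM without the mitochondrially encoded genes gave 86 and 574. Leaving out DRF ZT16 replicate 1 or 4, NRF ZT4 replicate 4, DRF ZT20 replicate 1 or 4 or NRF ZT8 replicate 3 brought the calls to between 95 and 116. With only the groups compared in the fit, 35 were called. Per2 had a difference of 0.14 at 8 h and so changed by 2.84 ± 0.34 (adjusted p = 1.86e-07). Dbp stood at -3.30 at 8 h, a change of 4.02 ± 0.60 (adjusted p = 3.96e-05), and Arntl turned from -1.45 at 4 h to 1.27 at 8 h (change -2.72 ± 0.33, adjusted p = 2.34e-07). Per3 (-0.79 at 8 h), Hlf (-0.87) and Tef (-0.47) lay below 0 as well, each with a change past the test.

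Beyond the clock, Adamts4 differed by -0.003 at 8 h (change -1.82 ± 0.23, adjusted p = 1.29e-06) and Spon2 by -0.26 (change -2.10 ± 0.53, adjusted p = 0.0334). Col5a3 was still lower at 8 h, by a smaller step (-0.78, change -1.31 ± 0.24, adjusted p = 0.00078), and it was the only member of the matrix list whose difference changed. Pdk4 stood at 2.07 at 8 h, a change of -3.02 ± 0.65 (adjusted p = 0.00737, but 0.174 with only the groups compared in the fit), and Ehhadh at 0.99, a change of -1.61 ± 0.26 (adjusted p = 0.000127). Myl7 (change 7.00 ± 1.84, adjusted p = 0.0423) and Hamp (change 4.68 ± 1.15, adjusted p = 0.0277) were among the 5 largest changes, but both calls were lost in several fits without a library.

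Against the end of the feeding window (DRF ZT12 minus NRF ZT0), the difference changed for 303 genes (2.18%), 113 upward and 190 downward, 6 of them clock genes. Rescaling gave 374 upward and 453 downward, and TPM without the mitochondrially encoded genes gave 101 and 571. With only the groups compared in the fit, 48 were called. Nr1d1 turned from 1.46 at the end of feeding to -1.68 at 4 h of fasting (change -3.14 ± 0.39, adjusted p = 3.09e-06). Dbp had stood at 3.60 (change -2.88 ± 0.60, adjusted p = 0.00763), and Nfil3 at -1.28 (change 1.86 ± 0.35, adjusted p = 0.003). Per2, Per3, Tef, Hlf, Npas2 and Arntl gave no call here, with Per2 at 2.53 and Arntl at -2.56 at the end of feeding. Of 12 genes of DNA replication, 8 changed, and so did Pbk, a mitotic kinase (change -2.21 ± 0.51, adjusted p = 0.0166), for which NRF ZT4 replicate 4 measured 10.7 TPM against 1.69 to 4.57 in the rest of its group. The Pbk call was lost without that library, without DRF ZT12 replicate 4 and with only the groups compared in the fit. Leaving out NRF ZT4 replicate 4 brought the 303 calls down to 81, leaving out NRF ZT4 replicate 1 raised them to 531, and without DRF ZT16 replicate 2, 3 or 4, NRF ZT4 replicate 2, DRF ZT12 replicate 2 or 4 or NRF ZT0 replicate 1, 3 or 4 they numbered 87 to 192. Gm24494 was the last of the 5 largest changes (-2.55 ± 0.67, adjusted p = 0.0348), and 9 of the fits that left out a library lost its call (adjusted p = 0.0506 to 0.0841).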

How the data were processed

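The series measured poly(A) RNA of whole mouse hearts in 56 libraries (14 groups of 4), of which 8 carry the comparison. The submitters' processing notes name the aligner HISAT2 2.0.5, the read counter featureCounts 1.5.0-p3 and the build mm10. The library kit does not mark strand, so reads of genes overlapping on opposite strands cannot be told apart. The values that the authors deposited are named TPM, but on inspection each was another quantity, a log2 of 1 plus the depth-scaled reads, divided by the gene's length, with a constant per library.

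The whole reads behind these deposited values were recovered (99.9998% of values whole within 0.1 read; 3 abundant genes, Hsp90ab1, Atp5a1 and Fth1, were not) and TPM was recomputed with GENCODE M21 lengths. For 834 genes the annotated length was lacking or did not give whole reads, and the length that did was searched for and used, and 78 genes were too abundant for the check and kept the annotated length. The tests had been planned for TPM and were run on it. The 13893 genes that averaged 1 TPM or more across all 56 libraries were fitted as log2(TPM + 1) with limma 3.58.1 (R 4.3.3; 14 group means, trended prior, Benjamini-Hochberg adjustment, threshold 0.05), and library composition was compared by exact permutation (scipy 1.17.1, Python 3.11.15). The fit was tested on simulated data. Totals of 29.3 to 53.0 M (megareads) per library set the precision, and no molecular identifiers were used. Alternatives were another pseudocount (0.1), other filters, median-of-ratios rescaling, TPM without mitochondrially encoded genes, limma-voom on the recovered reads, the deposited values as they are, a replicate block, only the groups compared, each library left out, and marker covariates added after the data were seen.

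Named genes were the 12 largest rises and falls among called genes whose libraries did not overlap, all clock genes, up to 2 leading called and 2 most abundant members of each other list, the 5 largest changes in each comparison of food-matched differences and the 8 largest rises and falls between fasting and feeding; other members of lists are named to account for counts, after their values were seen. The groups, 21 lists and rules were chosen with earlier results of these data known. Some genes counted in the lists are not reported here by name. No column of per-sample values was left unused.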

Additional observations from a re-analysis of the deposited data

Results flagged for a closer look

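In 256 groups of 4 libraries looked at, 22 values lay far from the other 3 of their group by Dixon's criterion, and chance gives about 1 in 20 groups. In DRF ZT16 replicate 2 these were Scd1 (641 TPM), Arntl (3.91 TPM), Fasn (115 TPM) and summed markers of white adipocytes (181 TPM). In DRF ZT16 replicate 1 these were Zbtb16 (58.6 TPM), Scgb1a1 (4.37 TPM), mt-Tv (1.23 TPM), Ciart (6.12 TPM), Bhlhe41 (6.05 TPM), Dbp (55.8 TPM), Per1 (30.3 TPM), Acaa2 (1166 TPM), Klf15 (77.3 TPM), Nqo1 (49.0 TPM) and summed markers of lung epithelium (5.60 TPM). In NRF ZT4 replicate 1 these were Ddit3 (17.5 TPM) and Atp2a2 (3499 TPM). In NRF ZT4 replicate 4 these were Klf2 (138 TPM) and Dusp1 (99.3 TPM). In NRF ZT4 replicate 2 these were Myl7 (345 TPM) and summed markers of atrial cardiomyocytes (1164 TPM). In NRF ZT4 replicate 3 it was the summed markers of white adipocytes (99.1 TPM). DRF ZT16 replicate 1 held most of the clock genes among them, DRF ZT16 replicate 2 both lipogenic genes and white adipocyte markers, and their part in the results was not tested.

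The food-matched difference at 4 h of fasting (log2(TPM + 1)) was tested against that at 8 h, each in its own libraries, and the change passed for 34 of the named genes. The difference was more positive at 4 h for Myl7 (7.00), Hamp (4.68), Dbp (4.02), Per2 (2.84), Per3 (2.57), Ciart (2.23), Hlf (2.06), Gm45819 (2.03), Tef (2.03), Nr1d1 (1.83), Angptl7 (1.63), Inmt (1.53), Nr1d2 (1.44), Bhlhe41 (1.39), Bhlhe40 (1.34), Ier3 (1.30), Fmo2 (1.19), Ddit3 (1.12), Cry2 (0.70) and Me1 (0.45). It was more negative for Pdk4 (-3.02), Arntl (-2.72), Npas2 (-2.22), Spon2 (-2.10), Tmem171 (-1.83), Adamts4 (-1.82), Ehhadh (-1.61), Gm12966 (-1.54), Col5a3 (-1.31), Slc41a3 (-1.09), Fbn1 (-0.98), Cx3cr1 (-0.94), Clock (-0.78) and Cd36 (-0.59). 

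It was tested in the same way against the difference at the end of feeding, and the change passed for 17 of the named genes. The change was positive for Nfil3 (1.86), Angptl7 (1.66), Gm45819 (1.36), Cry1 (1.28), Adam19 (0.85), Hspa8 (0.81) and Herpud1 (0.72), and negative for Nr1d1 (-3.14), Dbp (-2.88), Gm24494 (-2.55), Pbk (-2.21), Nr1d2 (-1.84), Mki67 (-1.76), Ccna2 (-1.68), Mcm6 (-0.95), Pcna (-0.55) and Nqo1 (-0.52).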

How the results depend on the processing

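Of 111 named genes, 73 were called between the food-matched hearts, 47 of them with the same sign in every of the 18 settings tried for this comparison, and 0 reversed. The 26 whose calls were lost in at least 1 setting were Acot2, Cd36, Cirbp, Cpt1a, Cyp1a1, Dgat2, Ehhadh, Eno3, Fasn, Gja1, Hamp, Hcn2, Mcm6, Mki67, Myl7, Nr1d2, Pcna, Rpl22l1, Rpl36, Rps27a, Scd1, Scgb1a1, Steap4, Ucp3, Wipi1 and mt-Tv. Fitting only the groups compared, with fewer libraries behind the spread, called 1620 genes (3150 with all groups), 1266 of them lower (2660). It called 463 between fasting and feeding (1007), 35 for the change to 8 h (177) and 48 for the change from the end of feeding (303). Median-of-ratios rescaling gave 1388 higher (490) and 1657 lower calls, and 483 and 827 for the 2 changes. Limma-voom gave 1401 higher, 1670 lower, 509 and 857, which are also values after another scaling. TPM without mitochondrially encoded genes gave 660 and 672 for the 2 changes, the deposited values as they are gave 653 and 494, and dropping the filter on low values gave 108 for the change to 8 h. The cause of these shifts was not tested. Leaving out 1 library gave 1533 to 3943 calls between the food-matched hearts (364 to 464 higher, 1169 to 3524 lower), 603 to 1297 between fasting and feeding, 95 to 234 for the change to 8 h and 81 to 531 for the change from the end of feeding. The lowest of these counts came without NRF ZT4 replicate 4, except 603, which came without DRF ZT16 replicate 4; for 8 h, leaving out NRF ZT8 replicate 3 gave 95 as well. No composition measure passed in any setting, and with a library left out none could. With all 8 libraries a single measure at the smallest p could not pass the adjustment either, so the lack of a pass does not show equal composition. The 4 marker sums used as covariates, chosen after the data were seen, left 2822 calls (494 higher, 2328 lower).

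Replicate numbers did not pair the libraries: deviations of same-numbered libraries correlated at -0.14, -0.06, 0.15 and -0.18. A replicate block gave 3148 calls (516 higher, 2632 lower), 988 between fasting and feeding, 194 for the change to 8 h and 300 for the change from the end of feeding, and among named genes it cost Scgb1a1 its call and brought Pln past the threshold. With 31.1 to 53.0 M (megareads) per library, genes under 1 TPM were not tested, and differences of small non-coding RNAs rest on few reads.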
